A study of Mus musculus with 2 samples.

Results

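The genes described here are 10 of the 34097 listed for each library: the matrix metalloproteinases Mmp2, Mmp3, Mmp9, Mmp12, Mmp13, Mmp14 and Mmp16, and the tissue inhibitors Timp1, Timp2 and Timp3. They were chosen by name, with earlier results of these data known. All 10 had UMIs (unique molecular identifiers, 1 per captured mRNA molecule) in both libraries. The series is droplet single-cell RNA sequencing on the 10x Genomics platform of tumours of LLC cells, the mouse Lewis lung carcinoma line, labelled as xenografts. The control library came from a control tumour. The knockdown library came from a tumour whose label names an shRNA that lowers GFPT2, an enzyme that feeds glucose into the hexosamine pathway. The labels give no mouse strain, age, time after injection or hairpin sequence, and do not say whether a library holds 1 tumour or several, so each group is 1 library, and the differences reported have no spread between animals to be judged by.

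Matrix metalloproteinases are zinc-dependent enzymes that cut collagens, laminins, elastin and other proteins of the extracellular matrix, and that also trim growth factors and chemokines. Most are secreted as inactive precursors, while Mmp14 and Mmp16 sit in the cell membrane. The TIMPs bind the active site of these enzymes and block it, and TIMP2 also takes part in the activation of pro-MMP2 by MMP14 at the cell surface. In tumours, both the malignant cells and the macrophages around them are known sources of these proteins.

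Cells were sorted into classes by fixed gene levels. Macrophages held at least 10 UMIs of C1qa, C1qb and C1qc together per 10000 UMIs, monocytes held at least 20 of Lyz2 and fewer than 5 of C1q, and tumour-like cells had no Ptprc, fewer than 5 Lyz2 per 10000 UMIs and at least 5000 UMIs. This gave 3990 control and 4556 knockdown macrophages, 144 and 40 monocytes, and 4986 and 5212 tumour-like cells, among 10662 and 11450 kept cells. Levels are counts per 1000000 UMIs (CPM): the UMIs of a gene summed over the cells of a class, divided by the UMIs of all genes in those cells. Ranges in parentheses are exact 95% Poisson intervals for a CPM, exact Clopper-Pearson intervals for a share of cells, and the range both intervals allow for a log2 ratio of knockdown over control. They cover counting error only, since amplified UMIs from 1 library do not measure the spread between tumours. Reads come from transcript ends, so levels are compared between cells and not between genes.

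Over all kept cells Gfpt2 had 244 control and 68 knockdown UMIs, 1.76 and 0.573 CPM. Of its 212 control UMIs in tumour-like cells, 101 lay in 150 cells with the markers Krt16 and Klk8, and the knockdown library had 22 such cells with 2 UMIs. In tumour-like cells of no marker state, defined further on, Gfpt2 was at 0.637 and 0.359 CPM from 25 and 11 UMIs. The part of cell make-up in the Gfpt2 difference was not tested. The 8 fixed macrophage markers, which include the C1q genes of the gate, summed to 74667 and 61877 CPM in macrophages. All 8 were also found in tumour-like cells, where they summed to 514 and 634 CPM. Tumour-like cells held Hmga2, a chromatin protein re-expressed in tumours, at 220 and 218 CPM, but the epithelial markers of the same list were close to 0 (Krt7 at 1.10 CPM, Krt8 at 0.0868 and Epcam at 0.0386 in the control library), while the 8 fibroblast markers summed to 2525 and 2836 CPM. Xist, at 493 CPM in control macrophages, was at 2.88 and 3.99 CPM in tumour-like cells. The libraries shared 37 cell barcodes, and the median tumour-like cell had 18744 control and 14667.5 knockdown UMIs. The knockdown macrophages carried more RNA of tumour-cell type than the control macrophages: their fibroblast marker sum was 832 CPM against 302, and their Hmga2 level 88.2 CPM against 32.8. For this reason the macrophage levels are also given in macrophages low in tumour RNA, a subset chosen after the data were seen, with no Hmga2 UMI and fewer than 2 Col3a1 UMIs per 10000. It kept 3071 control cells (77.0%) and 2686 knockdown cells (59.0%), with fibroblast sums of 70.004 and 80.999 CPM. The 7 neutrophil markers summed to 71.4 and 33.9 CPM in all macrophages and to 57.9 and 44.8 CPM in the subset. Chil3, a monocyte marker, was at 31.8 and 2.97 CPM in all macrophages, where all 7 monocyte markers summed to 10287 and 8538 CPM. The part of these shifts in the macrophage levels was not tested.

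The genes are described by where their UMIs lay. Macrophages held 83.3% of all control and 85.5% of all knockdown Mmp12 UMIs, and 86.7% and 96.3% of the Mmp13 UMIs. The tumour-like cells held most UMIs of the other 8 genes. Their share ran from 80.0% for Mmp14 to 93.6% for Timp3 in the control library, and from 79.9% for Mmp14 to 90.7% for Mmp3 in the knockdown library. Beside this, tumour-like cells held 74.6% and 73.96% of the UMIs of all genes, and macrophages 17.1% and 18.1%, so the share for Mmp14 was close to that of all genes. The pattern over classes is shown in the plot of levels by class and library.

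**Figure D1:**
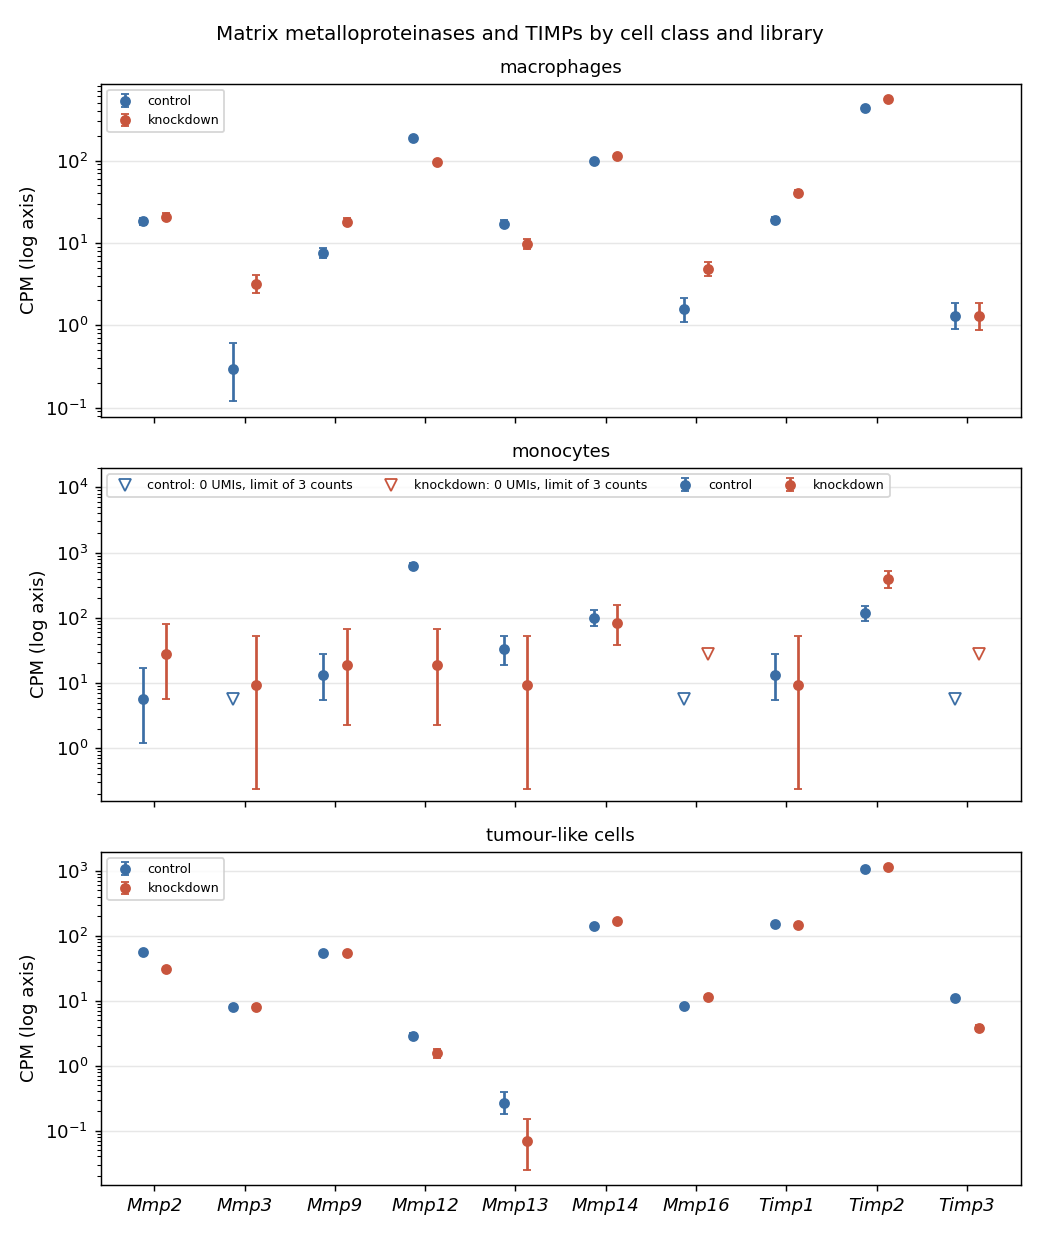
Level of each gene in CPM (log axis) in macrophages, monocytes and tumour-like cells, control in blue and knockdown in red; bars are exact 95% Poisson intervals and open triangles are limits of 3 counts where no UMI was found. Mmp12 and Mmp13 were lower in knockdown macrophages (186 against 94.7 CPM for Mmp12), while Mmp2 and Timp3 were lower in knockdown tumour-like cells.

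Mmp12 and Mmp13 are neighbours on mouse chromosome 9, in the RefSeq order Mmp13, Mmp12, Mmp1b, Mmp3, Mmp1a. Because Mmp12 and Mmp13 moved the same way in macrophages and most UMIs of the nearby Mmp3 lay in tumour-like cells, the 120 bases before their annotated starts are printed side by side, from RefSeq on GRCm38.p6, 5′ to 3′. Mmp12 has 2 annotated starts. Capitals mark TGANTCA, the letters that AP-1 factors (Jun and Fos dimers) are known to bind, and TATAAA, the core of a common promoter box, both searched on each strand.
Mmp13 chr9:7272394-7272513 (+): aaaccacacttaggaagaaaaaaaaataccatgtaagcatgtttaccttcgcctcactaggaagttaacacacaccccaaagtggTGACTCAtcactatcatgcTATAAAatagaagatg
Mmp12 first start chr9:7344277-7344396 (+): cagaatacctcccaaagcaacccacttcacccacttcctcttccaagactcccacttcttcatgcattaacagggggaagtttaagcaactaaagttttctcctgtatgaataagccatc
Mmp12 second start chr9:7347254-7347373 (+): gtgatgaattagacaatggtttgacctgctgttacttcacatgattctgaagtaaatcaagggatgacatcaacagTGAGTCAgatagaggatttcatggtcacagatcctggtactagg
Mmp3 chr9:7445702-7445821 (+): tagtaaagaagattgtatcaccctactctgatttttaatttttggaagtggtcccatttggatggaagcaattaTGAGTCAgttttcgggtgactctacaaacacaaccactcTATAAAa
In Mmp13 the TGANTCA match began 35 bases before the start and the TATAAA match 16 bases before it. In Mmp3 they began 46 and 7 bases before it. The second Mmp12 start had TGANTCA at 44 bases and no TATAAA, and neither set of letters is in the window of the first start. Of 32851 RefSeq windows of this length, 1120 (3.41%) held TGANTCA and 2083 (6.34%) held TATAAA. A match is a description of the letters and not evidence of binding. Of the 10 genes, 7 matched a promoter entry, and Mmp2, Mmp9 and Mmp16 did not.

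Macrophages of the knockdown library held less Mmp12 and Mmp13 and more Mmp9, Timp1 and Mmp16 than those of the control library, but the last 3 were not higher in macrophages low in tumour RNA beyond counting error. Among the 8 genes with at least 100 UMIs in 1 library, 3 were at least 1.5-fold higher, beside 10.5% of the 10753 genes tested the same way, and 2 were at least 1.5-fold lower, beside 1.26% of those genes. Over all genes this was 1128 higher and 135 lower, and 883 and 278 with TMM scaling, which left the counts for the family at 3 and 2. In macrophages low in tumour RNA, 6 genes could be assessed. Of these, 0 were higher, beside 1.48% of 9540 genes, and 2 were lower, beside 1.69%. The median log2 ratio of the genes assessed was 0.27 in all macrophages, beside 0.10 for all genes, and -0.03 in the subset, beside 0.00 for all genes.

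Mmp12, the macrophage elastase, had 4404 UMIs in 591 control macrophages and 2037 UMIs in 389 knockdown macrophages. Its level was 186 CPM (180 to 191) against 94.7 CPM (90.6 to 98.9), with the control library higher, and the log2 ratio was -0.97 (-1.08 to -0.87). The intervals did not overlap. Where tumour RNA was low it stood at 203 and 120 CPM, a log2 ratio of -0.76 (-0.88 to -0.63), so the lower knockdown level was present there too. A small number of cells carried most of these molecules: 141 control macrophages with at least 10 Mmp12 UMIs held 71.1% of them, and 52 knockdown macrophages held 55.7%. The richest cell held 113 control or 141 knockdown UMIs.

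Mmp13, a collagenase that cuts fibrillar collagen, had 404 control and 208 knockdown UMIs in 173 and 126 macrophages. Its level was 17.0 CPM (15.4 to 18.8) against 9.67 CPM (8.40 to 11.1), a log2 ratio of -0.82 (-1.16 to -0.48), with the control library higher and no overlap of the intervals. In macrophages low in tumour RNA it was 19.99 and 11.6 CPM, a log2 ratio of -0.79 (-1.19 to -0.39). The fold passed 1.5, a log2 ratio of 0.585 in size, with less margin than that of Mmp12, and not under every setting. With Scrublet's own doublet threshold the log2 ratio was -0.55, and with C1q at least 50 per 10000 it was -0.48, both under 1.5-fold. Without the richest cell of each library, which had 63 control and 13 knockdown UMIs, it was -0.66.

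The same macrophages tended to hold both enzymes. Mmp12 was found in 53.8% of control macrophages with an Mmp13 UMI and in 13.05% of those without, and in 40.5% and 7.63% in the knockdown library. Where tumour RNA was low these shares were 53.1% and 13.51% for control and 45.2% and 8.11% for knockdown cells. Cells with Mmp13 were deeper, with a median of 7279 control UMIs against 5290 and 6090 knockdown UMIs against 3887, and the part of depth in this overlap was not tested. Macrophages with Mmp12 also held more Spp1, which encodes the secreted phosphoprotein osteopontin, than macrophages without it, at 2201 against 733 CPM in the control library and 1573 against 328 in the knockdown library, and in the subset low in tumour RNA at 2396 against 760 and 1953 against 470 CPM. The Spp1 comparison was chosen with the values in view.

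The gelatinases behaved differently from this pair. Mmp9, a gelatinase that degrades denatured collagen and basement-membrane type IV collagen, had 179 control and 391 knockdown UMIs in macrophages, 7.54 CPM (6.48 to 8.73) against 18.2 CPM (16.4 to 20.1). The log2 ratio was 1.27 (0.91 to 1.63), and the intervals did not overlap. In macrophages low in tumour RNA, Mmp9 was at 3.90 and 3.92 CPM, a log2 ratio of 0.01 (-0.78 to 0.78), and the ratio was 0.43 with Scrublet's own doublet threshold and 0.58, just under 1.5-fold, with no doublet removal. Mmp2, the other gelatinase, was at 18.2 CPM (16.5 to 20.01) and 20.9 CPM (19.0 to 22.9), with overlapping intervals, and at 13.3 and 14.6 CPM in the subset, a log2 ratio of 0.13 (-0.28 to 0.53).

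Mmp3 and Mmp16 were scarce in macrophages. Mmp3, a stromelysin with broad matrix substrates, had 7 control and 69 knockdown UMIs, 0.295 and 3.21 CPM, and 5 and 4 UMIs in macrophages low in tumour RNA. The log2 ratio was 3.44 (2.04 to 5.10) in all macrophages and 0.31 (-2.79 to 3.29) in the subset, and these ranges overlapped. Mmp16, a membrane-type enzyme, had 37 and 104 UMIs, 1.56 and 4.83 CPM, and 12 and 7 UMIs in that subset, where its log2 ratio was -0.14 (-2.26 to 1.85) against 1.63 (0.88 to 2.42) in all macrophages. For Mmp16 the range in the subset includes the value over all macrophages, so a difference of that size could not be told from none at this depth. Mmp14, the membrane-type enzyme that activates pro-MMP2, was at 98.4 CPM (94.4 to 102) and 113 CPM (109 to 118), higher in the knockdown library by less than 1.5-fold, and at 95.5 and 92.4 CPM in the subset, where the intervals overlapped.

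Among the inhibitors, Timp1 had 452 control and 879 knockdown UMIs in macrophages, 19.1 CPM (17.3 to 20.9) against 40.9 CPM (38.2 to 43.6). The log2 ratio was 1.10 (0.87 to 1.33), with the knockdown library higher and no overlap. It was at 7.63 and 8.95 CPM in macrophages low in tumour RNA, a log2 ratio of 0.23 (-0.30 to 0.76), and the ratio was -0.02 with Scrublet's own doublet threshold and 0.25 with no doublet removal. Timp2 was at 437 CPM (429 to 445) and 552 CPM (542 to 562), a log2 ratio of 0.34, and at 384 and 381 CPM in the subset, a log2 ratio of -0.01 (-0.09 to 0.06). Timp3, an inhibitor that binds to the matrix, had only 31 and 28 UMIs, with a log2 ratio of -0.01 (-1.10 to 1.08), and 12 and 4 UMIs in the subset, with one of -0.95 (-3.63 to 1.36). With no doublet removal it had 219 and 112 UMIs and was lower in the knockdown library, with a log2 ratio of -0.77. The plot of ratios sets the macrophage values with and without the cells that carry tumour RNA side by side.

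**Figure D2:**
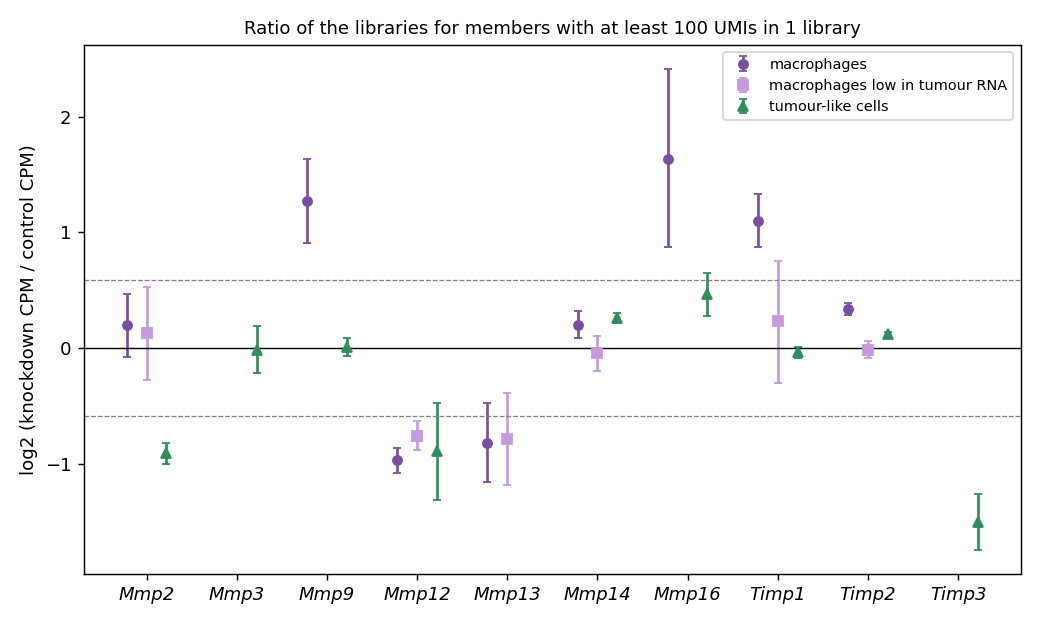
log2 ratio of knockdown over control CPM for genes with at least 100 UMIs in 1 library, in macrophages (circles), macrophages low in tumour RNA (squares) and tumour-like cells (triangles); bars are the range the pair of 95% intervals allows and dashed lines mark 1.5-fold. Mmp12 and Mmp13 lie below the lower line in both macrophage sets, while Timp1 moved from 1.10 to 0.23 when cells with tumour RNA were left out.

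Shares of cells were compared after each macrophage was thinned to 2000 UMIs, which left out 605 control and 984 knockdown cells. The order of the libraries for Mmp12 was the same before and after thinning. It was found in 11.1% (10.1 to 12.2) of control and 7.17% (6.34 to 8.06) of knockdown macrophages, against 14.8% and 8.54% before thinning. The share in macrophages low in tumour RNA was 11.1% and 7.83%. For Mmp14 and Timp2 the order turned: Mmp14 was found in 37.4% of control and 33.8% of knockdown macrophages before thinning and in 16.9% and 19.5% after it, and Timp2 in 70.1% and 66.9% before and 48.1% and 54.6% after. T cells, which are not known to make Mmp12, held it in 0.909% of control cells and in 0 of 264 knockdown cells at the same depth (median before thinning 2892 and 2682.5 UMIs, against 5379.5 and 3953.5 in macrophages), so the macrophage shares lay above that background. The thinned Timp1 share was 2.13% and 5.74% in macrophages and 1.30% and 1.54% in macrophages low in tumour RNA, beside 2.73% and 2.27% in T cells, and the Mmp9 share was 1.00% and 2.24%, and 0.592% and 0.480% in the subset, beside 1.82% and 1.89% in T cells. The T cells held Hmga2 at 17.3 and 18.2 CPM and Col3a1 at 330 and 350 CPM. Macrophages low in tumour RNA were chosen to be low in both genes, so the T cell shares of Timp1 and Mmp9 give no background for that subset. Mmp14, at 16.7% and 16.3% of those macrophages against 2.12% and 2.27% of T cells, and Timp2, at 47.0% and 44.8% against 19.1% and 18.6%, were above the T cell shares.

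**Figure D3:**
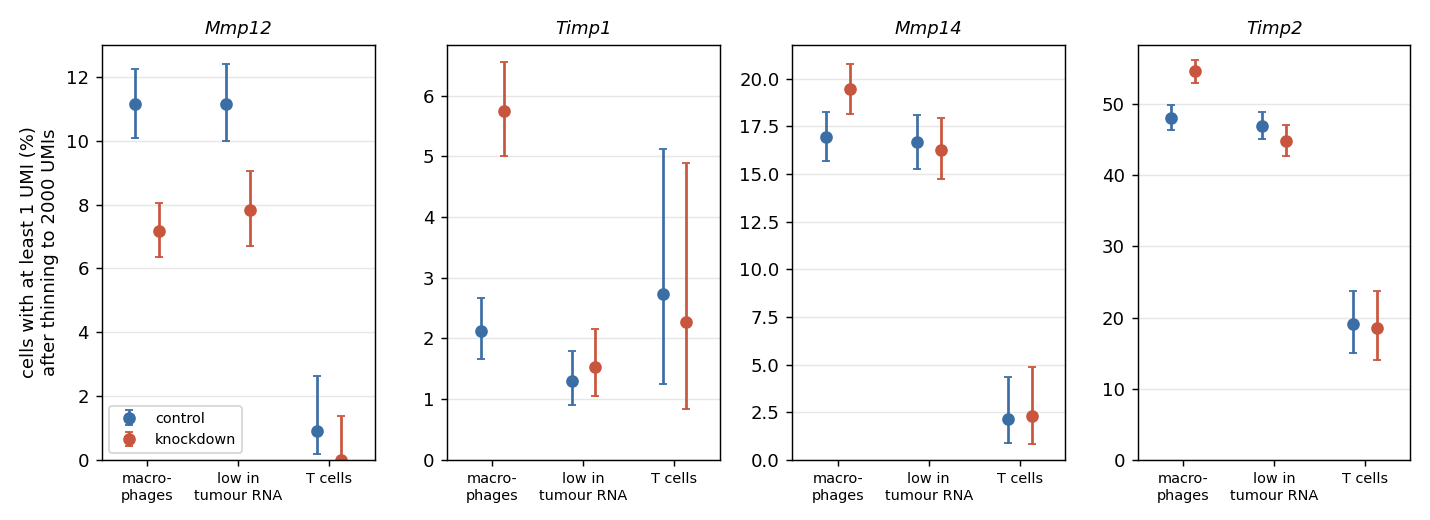
Share of cells (%) with at least 1 UMI after thinning to 2000 UMIs per cell, in macrophages, macrophages low in tumour RNA and T cells, control in blue and knockdown in red; bars are exact 95% binomial intervals and each panel has its own axis from 0. The Mmp12 share was lower in the knockdown library in both macrophage sets, while the Timp1 share of the knockdown library was 5.74% in all macrophages and 1.54% in those low in tumour RNA.

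Monocytes were few, and 1 gene had enough UMIs to be assessed. Mmp12 had 324 UMIs in 16 of 144 control monocytes and 2 UMIs in 2 of 40 knockdown monocytes. Its level was 626 CPM (559 to 698) against 18.6 CPM (2.26 to 67.3), a log2 ratio of -5.07 (-8.27 to -3.06). These CPM intervals did not overlap, but the intervals for the share of cells with Mmp12 did. They ran from 6.49% to 17.4% for control and from 0.611% to 16.9% for knockdown monocytes. Thinned to 2000 UMIs, 9.92% (5.23 to 16.7) of 121 control and 0 of 24 knockdown monocytes (0 to 14.2%) held Mmp12, again with overlap. This 1 gene of 1 was at least 1.5-fold lower, beside 13.4% of the 785 genes tested in monocytes, and 0 were higher, beside 3.18%. Over all genes this was 25 higher and 105 lower, and 7 and 233 with TMM scaling. In the control library, 7 cells with at least 10 Mmp12 UMIs held 90.1% of its UMIs, and the richest held 119. Restricting monocytes to cells with no C1q left 39 control UMIs and 1 knockdown UMI, too few for the 100-UMI minimum, with a log2 ratio of -3.39. The gate held different cells in each library. All 7 monocyte markers were found in both, summing to 16086 and 16824 CPM, but Lyz2, a gene of the gate, gave 11397 and 12867 CPM of these sums. The 7 neutrophil markers summed to 1383 CPM among control and 112 CPM among knockdown cells, where S100a9, Cxcr2 and Retnlg were at 0. The 7 T cell markers summed to 15.5 CPM among control cells, where Cd3e, Trac, Cd8a and Cd4 were at 0, and to 242 CPM among knockdown cells. The part of these cells in the Mmp12 difference was not tested.

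The other genes of the family had 61 UMIs or fewer per library in monocytes. Timp2 had 61 control and 42 knockdown UMIs, 118 CPM (90.1 to 151) against 391 CPM (282 to 529), higher in the knockdown library with no overlap. Beside it, the fibroblast marker sum in monocytes was 191 and 698 CPM, and in monocytes low in tumour RNA the Timp2 log2 ratio was 0.93 from 44 and 11 UMIs, against 1.73 in all of them. Mmp14 had 52 and 9 UMIs and Mmp13 had 17 and 1, with overlapping intervals for both. Mmp9, Timp1, Mmp2 and Mmp3 had 7 UMIs or fewer in each library. Mmp16 and Timp3 had no UMI in either library, which allows up to 5.79 CPM for control and 27.9 CPM for knockdown monocytes.

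In tumour-like cells, Mmp2 and Timp3 were lower in the knockdown library, while Mmp9, Mmp3 and Timp1 were at nearly the same level in both. Of 9 genes with at least 100 UMIs, 3 were at least 1.5-fold lower (Mmp2, Timp3 and Mmp12), beside 0.744% of 12372 genes, and 0 were higher, beside 2.33%. The median log2 ratio of the 9 was -0.01, beside 0.04 for all genes tested.

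Mmp2 had 5886 UMIs in 2266 control tumour-like cells and 2652 UMIs in 1471 knockdown tumour-like cells. Its level was 56.8 CPM (55.4 to 58.3) against 30.2 CPM (29.1 to 31.4), a log2 ratio of -0.91 (-1.002 to -0.817). The control library was higher, with no overlap, and over the alternatives tried the ratio ran from -1.02 to -0.82. Thinned to 5000 UMIs per cell, 21.2% of control and 13.1% of knockdown cells held an Mmp2 UMI. Mmp9, the other gelatinase, was at 54.3 CPM (52.9 to 55.7) and 54.6 CPM (53.1 to 56.2), with overlapping intervals and a log2 ratio of 0.01 (-0.07 to 0.09).

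Timp3 had 1130 UMIs in 363 control cells and 338 UMIs in 174 knockdown cells. Its level was 10.9 CPM (10.3 to 11.6) against 3.85 CPM (3.45 to 4.29), a log2 ratio of -1.50 (-1.74 to -1.26), with the control library higher and no overlap. With Lyz2 and C1q at 0, which left 21 control and 14 knockdown Timp3 UMIs, the ratio was -0.75, and over the other alternatives it ran from -1.58 to -1.39. There were 116 control and 32 knockdown cells with at least 3 Timp3 UMIs, so both the number of cells with the transcript and the number of cells rich in it were lower. The other inhibitors moved less. Timp1 was at 149 CPM (147 to 152) and 145 CPM (143 to 148), with overlapping intervals, and Timp2 at 1050 CPM (1044 to 1056) and 1144 CPM (1137 to 1151), higher in the knockdown library by a log2 ratio of 0.12 (0.11 to 0.14).

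The 120 bases before the Timp3 and Timp2 starts are printed because the ratios of these inhibitors had opposite signs over all tumour-like cells. This did not hold in each of the tumour-cell states, which are named by their marker genes and defined with their values further on: Timp2 was also lower in the knockdown library in Cryab Krt14 cells (log2 ratio -0.23, -0.29 to -0.16), Krt16 Klk8 cells (-0.22) and Csmd3 Robo2 cells (-0.14), and had overlapping intervals in Tnnt2 Tafa5 cells.  Capitals mark GGGCGG or its reverse complement CCGCCC, a GC box that Sp1-type factors are known to bind.
Timp3 chr10:86300292-86300411 (+): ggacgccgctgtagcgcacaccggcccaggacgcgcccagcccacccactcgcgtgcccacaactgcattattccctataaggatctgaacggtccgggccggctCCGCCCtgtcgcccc
Timp2 chr11:118355412-118355531 (-): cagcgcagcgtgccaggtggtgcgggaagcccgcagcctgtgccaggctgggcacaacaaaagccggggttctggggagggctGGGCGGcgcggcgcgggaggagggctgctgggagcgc
The match began 15 bases before the Timp3 start and 37 bases before the Timp2 start, and neither TGANTCA nor TATAAA is in these windows. Of the same 32851 windows, 8698 (26.5%) held GGGCGG. The windows of Timp1 and Mmp14 also hold GGGCGG. Any part of these letters in the ratios was not tested.

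The remaining metalloproteinases of tumour-like cells covered a wide range. Mmp14 was at 140 CPM (138 to 143) and 168 CPM (165 to 171), a log2 ratio of 0.26 (0.21 to 0.31), and Mmp16 at 8.19 CPM (7.65 to 8.76) and 11.3 CPM (10.6 to 12.0), a log2 ratio of 0.46 (0.28 to 0.65). Both membrane-type enzymes were higher in the knockdown library with no overlap, but by less than 1.5-fold. Mmp3 was at 8.12 CPM (7.58 to 8.68) and 8.04 CPM (7.46 to 8.66), with overlapping intervals. Mmp13 had 28 and 6 UMIs.

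Mmp12 in tumour-like cells, at 2.86 CPM (2.54 to 3.20) and 1.54 CPM (1.29 to 1.82), was at a small part of its macrophage level. Its log2 ratio was -0.89 (-1.31 to -0.48), and -0.41 without the 150 control and 22 knockdown cells of the Krt16 Klk8 state described next. Of its 296 control UMIs, 51 lay in 1 of 12 cells that also passed the macrophage gate and the other 11 had none, and of 135 knockdown UMIs, 1 lay in 34 such cells. Without these cells, an alternative chosen after seeing the data, the ratio was -0.63 (-1.06 to -0.20), and with Lyz2 and C1q at 0 it was -2.16 from 16 and 4 UMIs.

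Tumour-like cells were further divided by marker genes that are not in the family, with thresholds on the summed marker UMIs per 10000 UMIs. Cycling cells (1463 control and 1641 knockdown cells) held at least 10 of Mki67, Top2a, Ube2c, Birc5 and Cdk1. Cells with a fibroblast matrix programme (1095 and 1305) held at least 50 of Col1a1, Col1a2, Col3a1, Postn, Dcn and Lum. The other states held at least 5 of Cryab and Krt14 (184 and 344), 2 of Csmd3 and Robo2 (191 and 266), 2 of Tnnt2 and Tafa5 (509 and 251) or 5 of Krt16 and Klk8 (150 and 22). A cell could hold more than 1 state, which 590 control and 532 knockdown cells did, and 2048 and 1948 cells held none. The states are ranges of marker level and not cell types, and many cells lay within 1.5-fold of a threshold: 696 control and 608 knockdown cells for cycling, 1026 and 1297 for the fibroblast matrix programme, 185 and 294 for Cryab Krt14, 175 and 293 for Csmd3 Robo2, 556 and 316 for Tnnt2 Tafa5, and 93 and 28 for Krt16 Klk8.

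Mmp2 was lower in the knockdown library in each of the 6 states. Cycling cells held 44.7 CPM (42.6 to 46.8) against 19.7 CPM (18.2 to 21.2), and cells with the fibroblast matrix programme held 113 CPM (108 to 118) against 61.2 CPM (57.6 to 65.1). The Csmd3 Robo2 cells had the largest difference of the 6, at 161 CPM (148 to 175) against 23.3 CPM (18.5 to 28.9), a log2 ratio of -2.79 (-3.24 to -2.36). In the Krt16 Klk8 cells it was 152 and 56.8 CPM, in the Cryab Krt14 cells 71.2 and 37.1 CPM, and in the Tnnt2 Tafa5 cells 52.0 and 37.0 CPM, the smallest difference, with a log2 ratio of -0.49 (-0.83 to -0.16). None of these 6 pairs of intervals overlapped. In cells with no state, Mmp2 was at 41.7 and 26.0 CPM. The order of the states differed between libraries: Csmd3 Robo2 cells were the highest for Mmp2 in the control library, overlapping with Krt16 Klk8 cells, and next to the lowest in the knockdown library.

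With the state thresholds as set, Timp3 was also lower in each of the 6 states, and its level depended strongly on the state. In the control library it was highest in Cryab Krt14 cells, at 75.0 CPM (66.7 to 84.0), where the knockdown library had 15.3 CPM (12.4 to 18.7), a log2 ratio of -2.29 (-2.76 to -1.84). Tnnt2 Tafa5 cells came next in the control library and first in the knockdown library, at 34.4 CPM (31.2 to 37.9) and 23.8 CPM (19.5 to 28.6), a log2 ratio of -0.53. With the thresholds doubled these ratios were -1.35 in Cryab Krt14 cells and -1.42 in Tnnt2 Tafa5 cells. In cycling cells it was 7.81 and 2.08 CPM. The fibroblast matrix cells held 7.06 and 2.29 CPM, but with the threshold for that state doubled they held 7 control and 20 knockdown UMIs and the ratio turned, to 1.83. The Csmd3 Robo2 cells had 22 and 4 UMIs and the Krt16 Klk8 cells 64 and 2, with overlapping intervals in the last.

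Mmp3, level in tumour-like cells as a whole, differed in opposite directions between states. It was concentrated: 88 control cells with at least 3 UMIs held 79.4% of its UMIs, and 70 knockdown cells held 72.9%. In the control library 37.5% of those rich cells were Krt16 Klk8 cells and 39.8% fibroblast matrix cells. In the knockdown library 0% were Krt16 Klk8 cells and 67.1% fibroblast matrix cells. The Krt16 Klk8 cells had 277 control UMIs, 74.2 CPM (65.7 to 83.5), and 0 knockdown UMIs, which against the limit of 3 counts, 8.12 CPM over the group, is at least 9.14-fold lower, from 22 knockdown cells. Mmp3 was also lower in the knockdown library in Csmd3 Robo2 cells, at 31.1 CPM (25.6 to 37.6) against 4.83 CPM (2.81 to 7.73), with a log2 ratio of -2.69 that became -4.20 from 56 and 3 UMIs when the threshold was doubled, and in cycling cells, at 8.01 CPM (7.15 to 8.94) against 3.102 CPM (2.55 to 3.74). It was higher in the knockdown library in fibroblast matrix cells, at 20.5 CPM (18.4 to 22.7) against 28.3 CPM (25.8 to 30.9), and in cells with no state, at 1.60 CPM (1.23 to 2.05) against 5.29 CPM (4.51 to 6.17). Tnnt2 Tafa5 cells had 91 control and 3 knockdown UMIs, a log2 ratio of -3.57 (-6.14 to -1.71), and Cryab Krt14 cells had 1 and 14, with overlapping intervals. Without the Krt16 Klk8 cells, the ratio over all tumour-like cells was 0.52.

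Mmp9, likewise level over all tumour-like cells, was lower in the knockdown library in 3 of the 6 states. These were the Csmd3 Robo2 cells, at 133 CPM (121 to 146) against 54.5 CPM (47.1 to 62.8), the Krt16 Klk8 cells, at 121 against 59.5 CPM from 450 and 22 UMIs (a log2 ratio of -1.02, and -3.21 from 231 and 2 UMIs with the threshold doubled), and the fibroblast matrix cells, at 115 CPM (110 to 120) against 90.5 CPM (85.99 to 95.1). It was higher in Tnnt2 Tafa5 cells, at 42.2 CPM (38.6 to 46.0) against 63.4 CPM (56.4 to 71.0), a log2 ratio of 0.59 (0.29 to 0.88), but 0.34 with the threshold doubled, and 1 knockdown cell held 35 of the 296 UMIs. It was also higher in cells with no state, at 45.8 and 54.8 CPM, without overlap. In cycling and Cryab Krt14 cells the intervals overlapped.

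**Figure D4:**
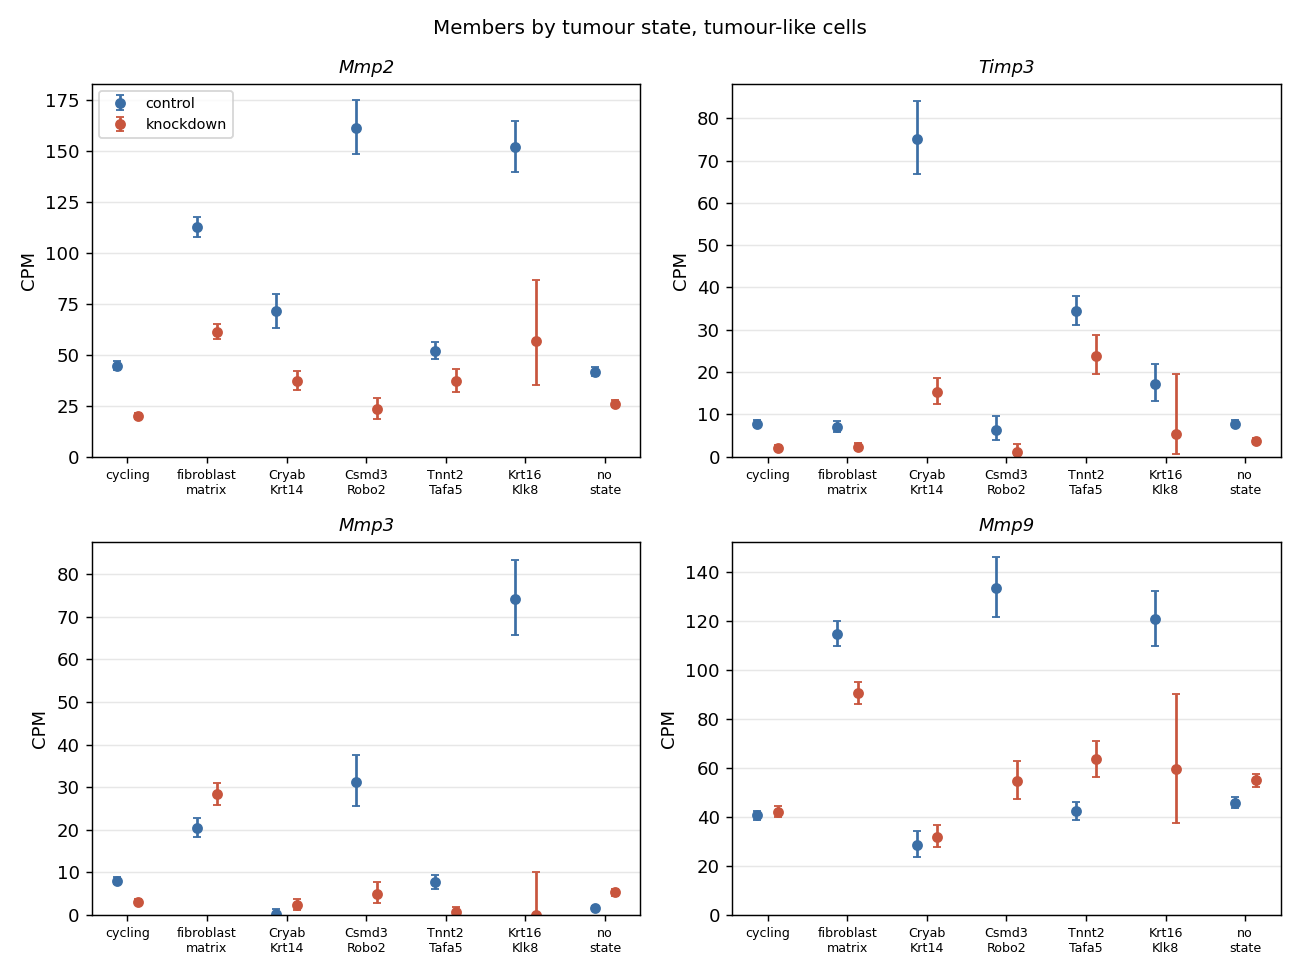
Level (CPM, linear axes from 0) of Mmp2, Timp3, Mmp3 and Mmp9 in tumour-like cells by state, control in blue and knockdown in red; bars are exact 95% Poisson intervals. With the state thresholds as set, Mmp2 and Timp3 were lower in the knockdown library in every state drawn (Timp3 turned in fibroblast matrix cells when the threshold was doubled), while Mmp3 and Mmp9 were lower in some and higher in others, as in the Krt16 Klk8 cells (277 against 0 Mmp3 UMIs) and the cells with no state (63 against 162).

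Among the other genes, Mmp14 was highest in fibroblast matrix cells, at 296 CPM (288 to 304) and 298 CPM (290 to 307), where the intervals overlapped. It was lowest in the control library in Krt16 Klk8 and Tnnt2 Tafa5 cells, at 73.9 and 75.8 CPM, which overlapped. In Krt16 Klk8 cells it was higher in the knockdown library, at 130 CPM (95.8 to 172), a log2 ratio of 0.81 (0.20 to 1.40) from 276 and 48 UMIs, with no overlap. Mmp16 was highest in Csmd3 Robo2 cells, at 58.3 CPM (50.5 to 66.8) and 44.8 CPM (38.1 to 52.4), with overlap, and in cells with no state it was at 5.96 and 10.3 CPM, a log2 ratio of 0.79 (0.44 to 1.14). Timp1 was highest in Cryab Krt14 cells in both libraries, at 221 and 178 CPM (in the knockdown library level with Tnnt2 Tafa5 cells, at 177.5 CPM), and in Csmd3 Robo2 cells it was at 163 CPM (150 to 177) against 104 CPM (94.0 to 116), without overlap. Timp2 was highest in Cryab Krt14 cells in the control library, at 1621 CPM (1582 to 1661), which overlapped with Krt16 Klk8 cells, and in fibroblast matrix cells in the knockdown library, at 1390 CPM (1372 to 1408), where Cryab Krt14 cells, at 1385 CPM, overlapped with them.

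Mmp12 among the states was highest in control Krt16 Klk8 cells, with 92 UMIs, 24.6 CPM (19.9 to 30.2). The knockdown Krt16 Klk8 cells had 1 UMI, a log2 ratio of -3.19 (-8.78 to -0.40). Of the control UMIs, 51 lay in 1 cell that also passed the macrophage gate. Without such cells there were 41 and 1, with a log2 ratio of -2.04 (-7.79 to 0.91) and overlapping intervals.

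The order of levels over all classes put endothelial cells first for Timp3, at 515 CPM (370 to 699) from 41 UMIs in 10 control cells and 349 CPM (244 to 483) from 36 UMIs in 16 knockdown cells, with overlap. Of these cells, 6 control and 9 knockdown cells also passed the tumour-like gate. For Mmp14, endothelial cells, at 151 and 203 CPM, overlapped with the tumour-like cells. T cells held Timp2 at 208 and 180 CPM and Timp1 at 20.6 and 11.6 CPM, each with overlapping intervals between libraries. They had 25 control Mmp12 UMIs, 20 of them in 1 cell, and 0 knockdown Mmp12 UMIs. For Timp1 the control T cells and control macrophages, at 20.6 and 19.1 CPM, did not differ beyond counting error. NK and dendritic cells, at most 44 cells per library, had 22 UMIs or fewer of any of the 10 genes. Dendritic cells had 1 control and 14 knockdown Mmp12 UMIs, 12 of the latter in 1 cell, a log2 ratio of 4.38 (1.03 to 10.4).

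Related genes were read as lists, by counts alone, beside 2.33% of all genes tested that were higher and 0.744% that were lower in tumour-like cells. In tumour-like cells, of 16 other metalloproteinases 4 could be assessed. Mmp10, a stromelysin, was higher in the knockdown library, with 182 and 385 UMIs, 1.76 and 4.39 CPM, and the other 3 were within 1.5-fold. Of 19 ADAM and ADAMTS proteases, which include the aggrecan-cutting enzymes, 15 could be assessed and 2 were higher: Adamts5, at 9.62 and 15.4 CPM, and Adamts6, at 21.4 and 33.4 CPM. Of 20 regulators of metalloproteinase activity, 13 could be assessed. Thbs1, a thrombospondin, was higher, at 3.19 and 5.26 CPM, and Lcn2, a lipocalin that binds MMP9, was lower, with 493 and 11 UMIs, a log2 ratio of -5.24 (-6.37 to -4.28). All 12 AP-1 and ETS factor genes could be assessed, and 0 differed by 1.5-fold in tumour-like cells.

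Of 17 matrix substrates, 16 could be assessed in tumour-like cells. Bgn, the proteoglycan biglycan, was higher in the knockdown library at 15.3 and 34.9 CPM, as were Col1a2, at 4.81 and 9.84 CPM, and Tnc, which encodes tenascin C, at 6.50 and 13.1 CPM. Lama4, a laminin chain of basement membranes, was lower, with 389 and 143 UMIs. The other 12 were within 1.5-fold, and the median log2 ratio of the list was 0.26, beside 0.04 for all genes tested.

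In macrophages, 14 of 15 matrix substrates were at least 1.5-fold higher in the knockdown library and 0 were lower, with a median log2 ratio of 1.62, beside 10.5% and 1.26% of all genes tested. In macrophages low in tumour RNA 2 of 8 were higher and 1 was lower, beside 1.48% and 1.69%. The 2 were Col4a1, a collagen chain of basement membranes, at 4.61 and 9.38 CPM, and Sparc, at 23.0 and 41.1 CPM. Beside them, the 5 endothelial markers summed to 16.4 and 33.3 CPM in the subset, and any part of endothelial RNA in these 2 genes was not tested. The gene that was lower was Fn1, which encodes fibronectin, at 252 and 161 CPM. Col3a1 is on this list and was used to choose the subset. In the same way, 5 of 12 ADAM and ADAMTS genes were higher in all macrophages and 1 of 8 (Adamts6, log2 ratio 0.59) in the subset. Of the AP-1 and ETS factors, 2 of 11 were higher in all macrophages (Fosl1 and Ets1) and 0 of 11 in the subset. Of the regulators, 3 of 13 were higher and 1 lower (Lcn2, with 563 and 4 UMIs) in all macrophages, and 1 of 11 was higher (Thbs1, at 36.9 and 56.3 CPM) and 0 lower in the subset. Lcn2 had 16 and 1 UMIs there, below the 100-UMI minimum, with a log2 ratio of -3.37 (-9.37 to -0.08). Of the other metalloproteinases, Mmp11, at 4.30 and 13.9 CPM, was the 1 of 2 that was higher in all macrophages, and 0 of 1 differed in the subset. In monocytes, Cd63, a tetraspanin that binds TIMP1, was higher at 350 and 661 CPM and Plaur, the urokinase receptor, was lower at 489 and 223 CPM, among 5 regulators assessed, beside 3.18% of all genes higher and 13.4% lower. Fosb, at 228 and 140 CPM, was the 1 of 5 AP-1 and ETS factors past 1.5-fold there, with overlapping intervals, and the 1 substrate assessed was within 1.5-fold.

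Likeness of pattern was measured as Pearson's r of log2(CPM + 1) over 26 points, the 13 classes and states in each library, across 13416 genes. The points share libraries and, between states, cells, so r is a description. Mmp13 was most like Trem1 (r = 0.989), Sirpb1c (0.985) and Tfec (0.980), and Mmp12 most like Gm5150 (0.866), Cd33 (0.861) and Slc15a3 (0.851). Mmp2 was most like Apod (0.927), Fads3 (0.914) and Serpinf1 (0.913), and Mmp9 most like Magi2 (0.944). Mmp14 was most like Evi5 (0.936) and Mmp16 like Glis1 (0.940). The inhibitors Timp1, Timp2 and Timp3 were most like Trip6 (0.971), Scrn1 (0.969) and Tinagl1 (0.909). Within the family, Mmp12 and Mmp13 had r = 0.806, Mmp2 and Timp2 0.926, and Mmp2 and Mmp9 0.851, while Mmp13 and Timp3 had the lowest value, -0.408.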

How the data were processed

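Single-cell mRNA was measured in 2 libraries. The authors deposited raw UMI counts, whole numbers for each cell and gene, from Cell Ranger with no scaling. Its version is 6.1.0 per the file headers and 3.1.0 per the submitters' processing notes. The genome build and annotation of the counting are not given in the sources used here. The libraries held 11977 and 12853 barcodes with 165824226 and 138402860 UMIs. Cells with under 200 genes (34 control, 19 knockdown) or over 20% mitochondrial UMIs (164 and 72) were dropped. Doublets were then taken out by rank of the Scrublet score (scanpy 1.11.5), at 0.8% per 1000 cells, which took 1148 (9.59%) and 1322 (10.3%); Scrublet's own threshold marked 9.08% and 21.9%.

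UMIs were summed per class and library and divided by the class total. With 1 library per group no test was run. A gene was assessed with at least 100 UMIs in 1 library and counted as higher or lower at 1.5-fold. The 10 genes, gates and lists were chosen with earlier results of these data known; genes of the lists are named at 1.5-fold, at most 4 per list and class. Some results on single genes are not reported here. The ratio calculation was tested on simulated data. Alternatives covered doublets, cell filters, gates, the UMI minimum and scaling (edgeR 4.0.16 TMM, DESeq2 1.42.0 size factors). Counting could split reads where genes overlap in the annotation: Mmp12 with Mmp1b, Timp1 with Syn1, Timp3 with Syn3, Timp2 with Cep295nl and Mmp16 with Gm11860, and the use of strand is not given in the sources used here.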

Additional observations from a re-analysis of the deposited data

Results flagged for a closer look

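Among the 3 main classes and the tumour states (cells with no state included), and for genes with at least 100 UMIs in 1 library of the set, 4 genes were higher in the knockdown library in 1 set of cells and lower in another, with log2 ranges on opposite sides of 0. These differences between sets were not tested, because each set had 1 library per group. The Mmp3 log2 ratio was 1.72 in tumour-like cells with no state and -2.69 in Csmd3 Robo2 cells, a difference of 4.41. For Mmp9 it was 1.27 in macrophages and -1.29 in Csmd3 Robo2 cells, a difference of 2.56. For Timp1 it was 1.10 in macrophages and -0.64 in Csmd3 Robo2 cells, a difference of 1.74. Timp2 differed by 0.565, with 0.34 in macrophages and -0.23 in Cryab Krt14 cells. In macrophages low in tumour RNA the ratios were 0.01 for Mmp9, 0.23 for Timp1 and -0.01 for Timp2.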

How the results depend on the processing

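No paired analysis was possible because each group had 1 library. Of 84 alternatives to counts of genes or states, 74 stayed within 1.5 times the value reported; of 367 alternatives to single log2 ratios, 298 moved by less than the counting range, 66 moved further and 3 that were past 1.5-fold changed sign. A further 30 values for genes under 1.5-fold also changed sign, among them Mmp2 in macrophages, from 0.20 to -0.26 with no doublet removal and -0.14 with Scrublet's own threshold. With Scrublet's own doublet threshold (4010 control and 3741 knockdown macrophages), 0 genes were higher and 1 lower in macrophages, 0 were lower in monocytes, and the Timp1 ratio in macrophages was -0.0171. In macrophages low in tumour RNA, an alternative chosen after seeing the data, 0 were higher and the Mmp16 ratio was -0.14, from 12 and 7 UMIs. With no doublet removal, the macrophage counts were 2 higher and 3 lower: Mmp9 and Timp1 fell under 1.5-fold, while Timp3 (lower) and Mmp3 (higher) came past it. At C1q of at least 50, also chosen after seeing the data, 1 was lower. In monocytes, 1 was higher with no doublet removal or with a minimum of 20 UMIs (Timp2), and 0 were lower with Lyz2 of at least 50 or C1q at 0. Under the Scrublet and Lyz2 settings the 0 came from knockdown cells with no UMI, which gives no ratio: with Scrublet's own threshold there were 324 control UMIs (626 CPM) and 0 knockdown UMIs, against a limit of 30.9 CPM at least 20.2-fold lower, and with Lyz2 of at least 50 there were 153 (364 CPM) and 0, at least 8.19-fold lower. With C1q at 0 there were 39 and 1, under the 100-UMI minimum. In tumour-like cells with Lyz2 and C1q at 0 (288 and 396 cells), 1 was lower, with fewer genes assessed. Timp3 in fibroblast matrix cells had a ratio of 1.83 with the state's threshold doubled. Apart from these constructions, which change the cells or genes assessed, the cause was not tested. The Mmp12 ratio ran from -1.11 to -0.70 in macrophages and from -5.59 to -3.39 in monocytes, and the Timp3 ratio in tumour-like cells from -1.58 to -0.75. TMM scaling shifted every log2 ratio by -0.14 in macrophages, -0.31 in monocytes and -0.07 in tumour-like cells. In knockdown monocytes and Krt16 Klk8 cells, genes with 0 to 3 UMIs have wide ranges.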
